A study of Mus musculus with 16 samples.

Results

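The 10 transcription factors described here belong to the secretory lineage of the mouse small intestine: Atoh1, Gfi1, Spdef, Creb3l1, Creb3l4, Bhlha15, Foxa1, Foxa2, Foxa3 and Sox9. They were chosen by name, with earlier results of these data known, and are 10 of the 45513 genes in the deposited count files. Every member was found and passed the filter on low counts, as did 15323 genes in all. RNA was measured in 16 libraries from 8 mice, and each mouse gave 1 library of tdTom+ cells and 1 of tdTom- cells, both sorted as live and EpCAM+. The epithelium carries EpCAM at its surface, and tdTom is a red fluorescent reporter.

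The mice were homozygous for Atoh1(WT)CreERT2, an allele that places a tamoxifen-inducible Cre recombinase downstream of the Atoh1 coding sequence, and carried 1 copy of the Rosa26 tdTom reporter on a C57BL/6 background. Males and females of 8 to 16 weeks were used. Tamoxifen was given at 1 mg per day for 3 days, per the labels and the methods of the study for its secretory signature. Cells came from the proximal 15 cm of the intestine after a first, villus-enriched fraction had been discarded. Both fractions therefore shared genotype, tamoxifen and dissection, and differed in the reporter. Since the Atoh1 locus drives the Cre, the level of Atoh1 checks the sort and is not an independent finding. The tdTom+ label also stays in the descendants of a cell after Atoh1 has been switched off. These are bulk libraries, so fewer cells of a type and less RNA per cell cannot be told apart.

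Crypt cells enter the secretory lineage when Notch signaling is low, which releases Atoh1, a basic helix-loop-helix (bHLH) activator, from repression by HES proteins. ATOH1 turns on Gfi1, a zinc-finger repressor that holds back the enteroendocrine program in cells that become goblet or Paneth cells. Spdef, Creb3l1, Creb3l4, Bhlha15 and Foxa3 act later and build the machinery of mucus and granule secretion. Foxa1, Foxa2 and Sox9 are found more widely in the crypt: the FOXA proteins open chromatin, and SOX9 marks stem and progenitor cells and is needed for Paneth cells. The members were therefore described in these role groups, as initiating factors, goblet and Paneth factors, and crypt-wide factors.

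ATOH1 and BHLHA15 bind E-boxes, short sites of the form CANNTG. RefSeq promoter sequence (GRCm38.p6, the 250 bases before a gene's start) was at hand for 8 members, in 13 windows, and those of the 3 members with the largest log2 fold changes are shown, as the members whose levels differed most between the fractions. E-boxes on either strand are in capitals.

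Atoh1: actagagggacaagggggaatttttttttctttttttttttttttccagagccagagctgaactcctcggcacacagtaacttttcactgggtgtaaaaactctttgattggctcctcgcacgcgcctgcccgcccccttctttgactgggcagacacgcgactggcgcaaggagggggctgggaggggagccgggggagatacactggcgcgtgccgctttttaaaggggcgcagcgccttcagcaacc

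Spdef: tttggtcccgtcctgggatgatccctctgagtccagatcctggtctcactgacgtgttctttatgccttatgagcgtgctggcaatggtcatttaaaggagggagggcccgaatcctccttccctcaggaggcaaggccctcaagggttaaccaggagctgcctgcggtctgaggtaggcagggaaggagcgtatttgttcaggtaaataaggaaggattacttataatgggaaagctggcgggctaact

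Bhlha15: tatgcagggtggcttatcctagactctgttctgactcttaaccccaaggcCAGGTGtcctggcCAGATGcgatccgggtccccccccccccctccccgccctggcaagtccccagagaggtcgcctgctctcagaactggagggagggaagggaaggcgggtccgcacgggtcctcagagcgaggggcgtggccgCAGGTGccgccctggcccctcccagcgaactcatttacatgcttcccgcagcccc

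The Atoh1 window lies at chr6:64728875-64729124 on the plus strand, the Spdef window at chr17:27728952-27729201 on the minus strand, and the Bhlha15 window at chr5:144190036-144190285 on the plus strand. The Atoh1 and Spdef windows held no E-box. In the Bhlha15 window 3 were found, CAGGTG at 200 bases, CAGATG at 187 bases and CAGGTG at 55 bases before the start. In the window nearest the annotated start, Gfi1 held 1 E-box (CACCTG, 42 bases before the start), as did Foxa3 (CAGGTG, 173 bases) and Foxa1 (CAGGTG, 23 bases), while Creb3l4 and Foxa2 held none. A CANNTG match is common: 66.2% of 32851 RefSeq windows of this length held at least 1. The narrower CAGATG was present in 14.4% of windows and CAGCTG in 13.0%, and neither letter string, read on both strands, was found in another of these nearest windows. The forkhead sequence TGTTTAC stood in 3.2% of all windows and, among the nearest windows of the members, in that of Foxa1 alone. These matches describe letters in a window and are no measure of binding.

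All 10 factors were higher in tdTom+ cells (edgeR, adjusted p under 0.01), in 8 of 8 mice each. Among all genes tested 22.7% were called higher and 27.0% lower, 49.6% in all. The libraries of the 2 fractions did not overlap for any of the 10, against 14.6% of all genes tested that lay higher in tdTom+ without overlap and 31.6% without overlap in either direction. With the mouse as a block the 10 factors were called higher as well. In that fit 25.8% of all genes were called higher and 30.0% lower, 55.8% in all. The members were chosen with earlier results of these data known, so these shares are a description and not a test. The size of the change differed among the members. The 7 initiating and goblet and Paneth factors had log2 fold changes from 4.85 to 6.74, and the 3 crypt-wide factors from 1.39 to 3.21. The median over all genes tested was 0.00871.

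**Figure D1:**
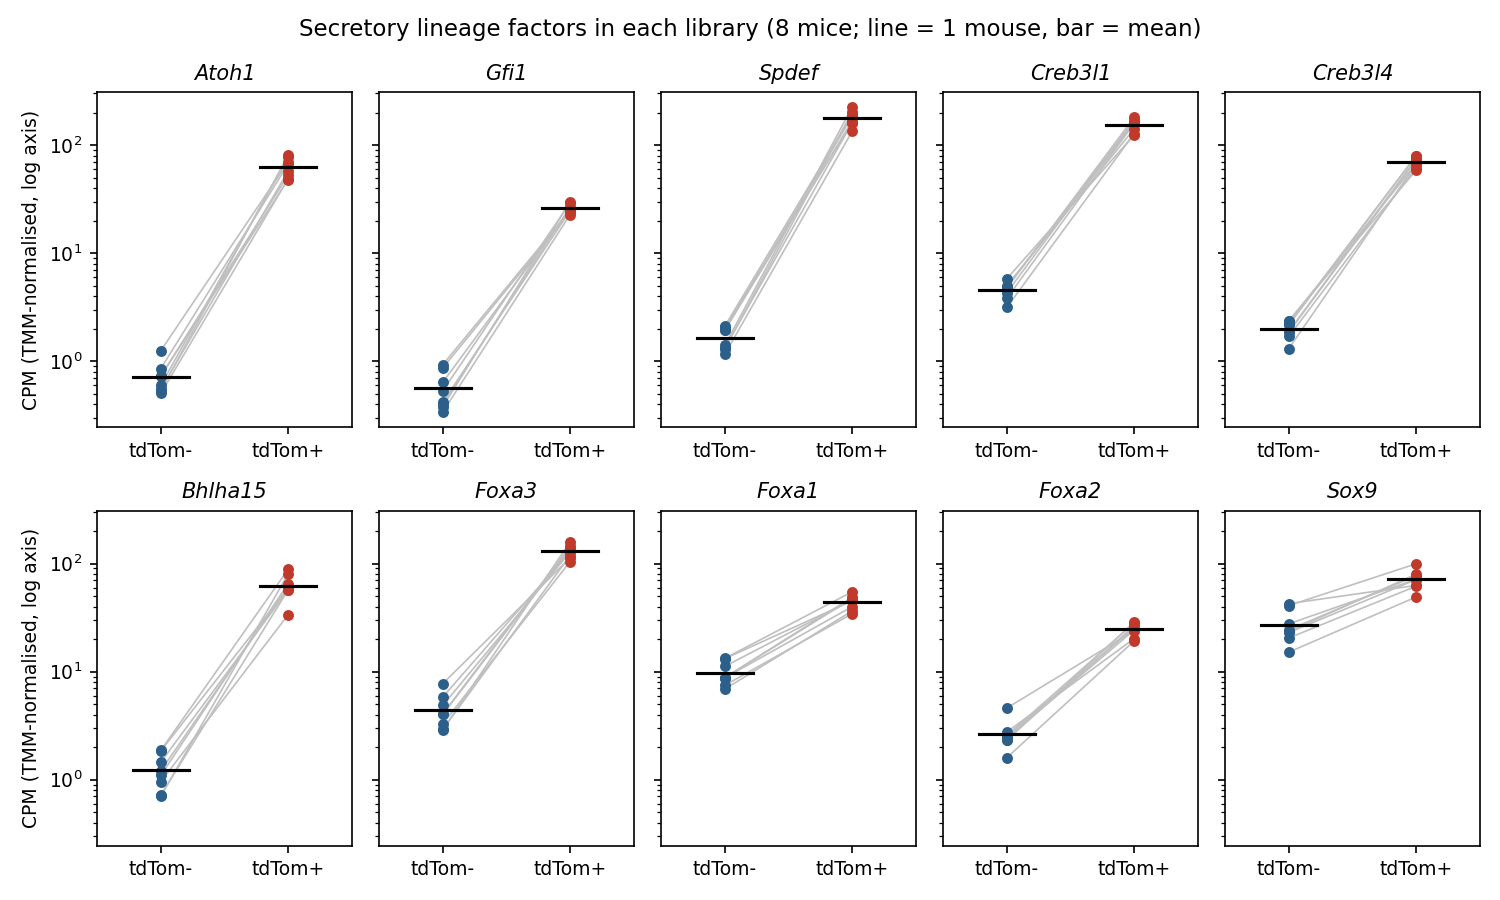
Normalized read counts (CPM, log axis) of each factor in the 8 tdTom- and 8 tdTom+ libraries, with a line for each mouse and a bar at the mean. Each line rises, from under 8 CPM for the first 7 panels and from up to 42.6 CPM for Sox9, and only the Sox9 ranges come close to touching.

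Atoh1 (ENSMUSG00000073043, GRCm38 chr6:64729146-64731233, plus strand), the factor that opens the lineage, was sequenced at 0.502, 0.662 and 1.25 CPM in the lowest, median and highest tdTom- library and at 48.0, 61.9 and 80.1 CPM in the tdTom+ libraries. CPM here are counts relative to the library total, rescaled by TMM, a method that equalizes libraries on the bulk of their genes. The lowest tdTom+ library held 38.3 times the level of the highest tdTom- library. The log2 fold change was 6.44 ± 0.18 (SE, adjusted p = 1.86e-15, edgeR), and the mean tdTom- level was 1.15% of the tdTom+ level. In raw reads, the tdTom- libraries held 11 to 24 Atoh1 counts and the tdTom+ libraries 1051 to 1470. The tdTom- counts lay above the floor of 3 counts in every library, which corresponds to 0.118 to 0.175 CPM.

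Gfi1 (ENSMUSG00000029275, chr5:107716657-107726036, minus strand) had the lowest level of the 10 in tdTom-, and the narrowest range in tdTom+. Its tdTom- libraries ran from 0.339 through a median of 0.475 to 0.929 CPM, and its tdTom+ libraries from 22.7 through 25.1 to 29.7 CPM. The highest tdTom+ library exceeded the lowest by 1.31 times, against 1.67 times for Atoh1. The log2 fold change was 5.49 ± 0.16 (SE, adjusted p = 4.17e-15, edgeR). With 7 to 22 counts in a tdTom- library, the low end of this ratio rests on few reads. An antisense gene overlaps the locus, and reads were assigned by strand.

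Spdef (ENSMUSG00000024215, chr17:27714352-27728951, minus strand), an ETS factor of goblet and Paneth cell maturation, had the largest log2 fold change of the 10. It stood at 1.16, 1.67 and 2.11 CPM in the lowest, median and highest tdTom- library and at 134, 176 and 224 CPM in tdTom+. At 6.74 ± 0.15 (SE, adjusted p = 2.59e-16, edgeR) it ranked 73 among the 15323 genes tested, and Atoh1 ranked 86. A tdTom- level of 0.930% of the tdTom+ level was the lowest share among the members.

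Creb3l1 and Creb3l4 encode transcription factors held in the membrane of the endoplasmic reticulum and released by cleavage, and they serve cells with a heavy secretory load. Creb3l1 (ENSMUSG00000027230, chr2:91982328-92024502, minus strand) rose from 3.15, 4.80 and 5.80 CPM in the lowest, median and highest tdTom- library to 124, 159 and 180 CPM in tdTom+. Creb3l4 (ENSMUSG00000027938, chr3:90237500-90243512, minus strand) rose from 1.31, 2.03 and 2.37 CPM to 58.5, 70.0 and 80.0 CPM. The 2 genes had nearly the same log2 fold change, 5.07 ± 0.12 for Creb3l1 (SE, adjusted p = 5.11e-16, edgeR) and 5.14 ± 0.11 for Creb3l4 (SE, adjusted p = 2.59e-16). In tdTom+ both were lowest in mouse 5 and highest in mouse 7, as were Bhlha15 and Sox9. In tdTom- both were highest in mouse 5, while the lowest library was that of mouse 6 for Creb3l1 and of mouse 8 for Creb3l4.

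Bhlha15, also called Mist1, is a bHLH factor that scales up the secretory apparatus. Its gene (ENSMUSG00000052271, chr5:144190286-144194441, plus strand) was read at 0.704, 1.15 and 1.87 CPM in the lowest, median and highest tdTom- library, and at 33.5, 59.9 and 88.2 CPM in tdTom+. This was the widest tdTom+ range of the 10, with a highest library 2.63 times the lowest. The log2 fold change was 5.67 ± 0.23 (SE, adjusted p = 2.49e-13, edgeR). Mouse 5 gave the lowest tdTom+ level and mouse 7 the highest, and the same 2 libraries had the lowest and highest sum of 8 Paneth markers, 52683 and 139451 CPM. The part of Paneth RNA in the spread of Bhlha15 was not tested.

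Foxa3 (ENSMUSG00000040891, chr7:19013282-19023538, minus strand), the forkhead factor grouped here with the goblet and Paneth factors, ran from 2.90 through 4.04 to 7.75 CPM in tdTom- and from 104 through 129 to 158 CPM in tdTom+. Its log2 fold change was 4.85 ± 0.19 (SE, adjusted p = 1.51e-13, edgeR), the smallest of the first 7. Even so, its lowest tdTom+ library held 13.4 times the level of its highest tdTom- library.

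The other 2 FOXA genes moved less. Foxa2 (ENSMUSG00000037025, chr2:148042877-148046969, minus strand) lay at 1.60, 2.46 and 4.60 CPM in the lowest, median and highest tdTom- library and at 19.2, 24.9 and 28.7 CPM in tdTom+, which gave 3.21 ± 0.16 as log2 fold change (SE, adjusted p = 6.98e-12, edgeR). Foxa1 (ENSMUSG00000035451, chr12:57540631-57546121, minus strand) lay at 6.89, 8.80 and 13.3 CPM in tdTom- and at 34.3, 45.5 and 54.7 CPM in tdTom+, which gave 2.17 ± 0.14 (SE, adjusted p = 2.89e-10). The tdTom- fraction thus kept 10.7% of the tdTom+ level of Foxa2 and 22.2% of that of Foxa1, against 3.44% for Foxa3. The 3 paralogs were ordered Foxa3, Foxa2, Foxa1 by fold change.

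Sox9 (ENSMUSG00000000567, chr11:112782224-112787760, plus strand) differed least. Its tdTom- libraries stood at 15.2, 23.9 and 42.6 CPM (lowest, median and highest), and its tdTom+ libraries at 49.0, 71.3 and 99.5 CPM. The lowest tdTom+ library, of mouse 5, was only 1.15 times the highest tdTom- library, of mouse 8. The log2 fold change was 1.39 ± 0.19 (SE, adjusted p = 3.37e-06, edgeR), and the mean tdTom- level was 38.0% of the tdTom+ level. By rank of fold change Sox9 stood at 1237 of the genes tested, Foxa1 at 704, Foxa2 at 404, and the other 7 members at 182 or higher.

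Some libraries were high or low for many of the factors at once. In tdTom-, mice 7 and 8 gave the 2 highest levels of 5 members, Gfi1, Spdef, Foxa3, Foxa1 and Sox9. Sox9, for example, read 40.9 CPM in mouse 7 and 42.6 CPM in mouse 8, and the next highest tdTom- library read 27.7 CPM. The same 2 tdTom- libraries had the lowest sums of 8 absorptive markers, 14550 and 24823 CPM in a range that reached 38346 CPM, and the highest sums of 8 stem cell markers, 2809 and 1757 CPM in a range that began at 1118 CPM. In tdTom+ the lowest library was that of mouse 5 for 5 members and that of mouse 6 for the other 5. These 2 tdTom+ libraries had the highest absorptive marker sums, 6021 and 4739 CPM in a range that began at 1563 CPM, and goblet marker sums of 159322 and 133789 CPM in a range from 129148 to 265265 CPM. The part of these cell types in the levels of the factors was not tested. With mice 7 and 8 both left out, an alternative chosen after the data had been seen, all 10 factors were still called higher. Log2 fold changes fell for Creb3l1 (5.03), Creb3l4 (5.07) and Bhlha15 (5.62). They rose for the others, among them Sox9 (1.62), Gfi1 (5.84) and Foxa3 (5.17), and Foxa3 then stood above Creb3l1 and Creb3l4.

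To ask whether Atoh1 and Gfi1 changed more or less than the other factors, the log2 ratio of tdTom+ over tdTom- was taken within each mouse, and 2 members were compared by the difference of their ratios, in which library scaling cancels. For each of the 45 pairs the signs of the 8 differences were flipped in every combination (exact sign-flip test, two-sided), which can give no p below 0.00781, and p-values were adjusted over the 45 pairs at a threshold of 0.05. In all, 35 pairs passed. Because the Atoh1 locus drives the Cre behind the sort, a high ratio of Atoh1 was built in, and its pairs are not independent findings. The mean within-mouse ratio was 6.29 ± 0.45 for Atoh1 and 5.37 ± 0.51 for Gfi1 (SD, n = 8, log2 scale with a prior count of 2), so that Atoh1 exceeded Gfi1 by 0.92 ± 0.65, in 8 of 8 mice (exact sign-flip test, adjusted p = 0.0107).

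Against the crypt-wide factors every pair passed. Atoh1 exceeded Sox9 by 4.85 ± 0.67, Foxa1 by 4.11 ± 0.49 and Foxa2 by 3.08 ± 0.58 (SD, n = 8 mice, log2 units), and Gfi1 exceeded them by 3.93 ± 0.39, 3.19 ± 0.45 and 2.16 ± 0.50. Each of these 6 differences held in 8 of 8 mice (exact sign-flip test, adjusted p = 0.0107). The 15 pairs of a goblet or Paneth factor with a crypt-wide factor passed as well, with differences from 1.68 to 5.24. Among the crypt-wide factors, Foxa2 exceeded Foxa1 by 1.03 and Sox9 by 1.77, and Foxa1 exceeded Sox9 by 0.74, and these 3 pairs also passed.

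Between the initiating factors and the goblet and Paneth factors the picture was mixed, with 4 of 10 pairs past the threshold. Atoh1 exceeded Creb3l1 by 1.24 ± 0.54, Creb3l4 by 1.20 ± 0.45 and Foxa3 by 1.39 ± 0.54 (SD, n = 8, exact sign-flip test, adjusted p = 0.0107 each). Spdef exceeded Gfi1 by 1.32 on average, in 8 of 8 mice with the same p. The difference of Atoh1 from Spdef was -0.40 ± 0.45 (SD), with Spdef higher in 6 of 8 mice, and did not pass (exact sign-flip test, n = 8, adjusted p = 0.0740). It ran from -1.04 to 0.31 over the mice, so these data do not place either of the 2 first, and without mouse 2 the pair passed at -0.50. Atoh1 against Bhlha15 gave 0.70 ± 0.81 (SD, n = 8, exact sign-flip test, adjusted p = 0.0740) and passed only without mouse 4, at 0.87.

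Gfi1 could not be told from 4 of the goblet and Paneth factors by this test. Its difference was 0.32 ± 0.57 from Creb3l1, 0.28 ± 0.65 from Creb3l4, -0.22 ± 0.83 from Bhlha15 and 0.47 ± 0.49 from Foxa3 (SD, n = 8, exact sign-flip test, adjusted p from 0.0684 to 0.507). These SDs are spreads over the mice and not errors of the mean difference, and a pair that did not pass was not shown to be equal. Gfi1 had the larger ratio in 6 of 8 mice against each of Creb3l1, Creb3l4 and Foxa3, and in 4 of 8 against Bhlha15. The pair with Foxa3 passed with a prior count of 0.5, at 0.63. Within the goblet and Paneth group 6 of 10 pairs passed. Spdef exceeded each of the other 4, by 1.10 to 1.79. Creb3l1 and Creb3l4 differed by only -0.04 ± 0.21 (SD), the narrowest gap of the 45. Bhlha15 exceeded Creb3l1 by 0.54 and Creb3l4 by 0.50, but both calls were lost when any 1 of mice 1, 3, 4, 5, 7 and 8 was left out, where the differences were 0.36 to 0.58.

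**Figure D2:**
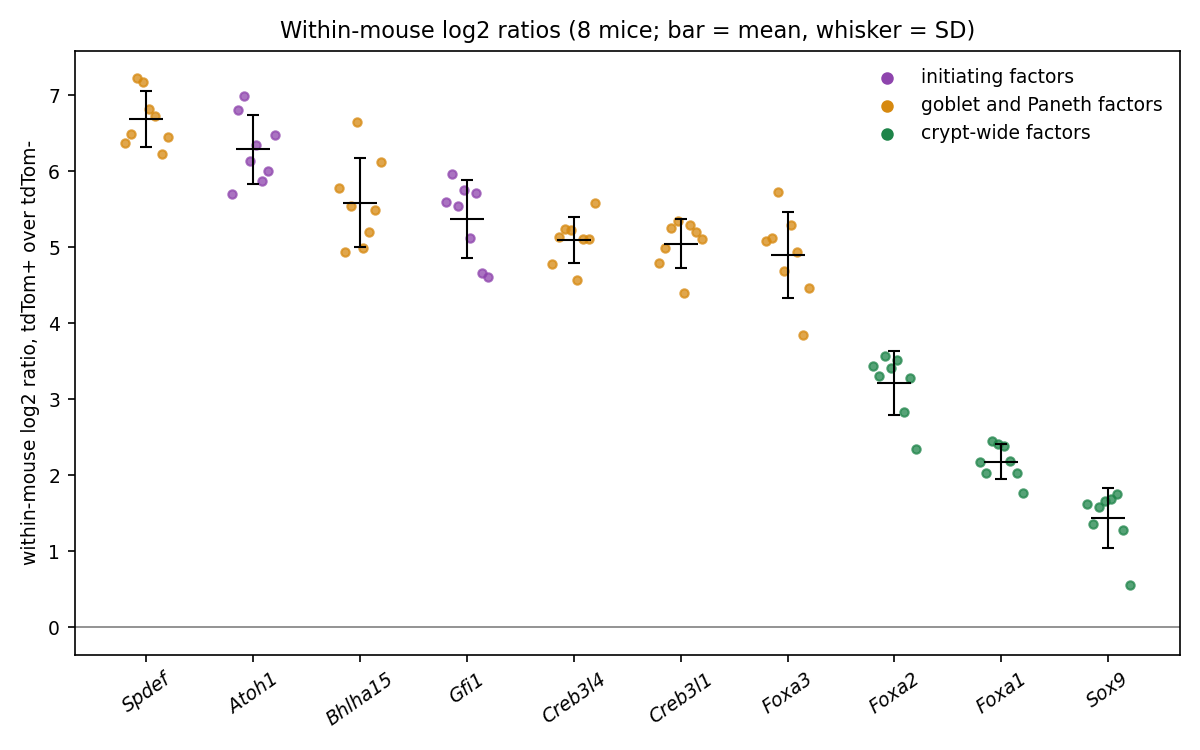
Within-mouse log2 ratio of tdTom+ over tdTom- for each factor in 8 mice (points), with the mean (bar) and SD (whisker), colored by role group and ordered by mean. Spdef and Atoh1 lead at 6.68 and 6.29, the other goblet and Paneth factors and Gfi1 lie between 4.89 and 5.59, and Foxa2, Foxa1 and Sox9 lie at 3.21, 2.18 and 1.44.

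Fold change does not say which factor was most abundant, so levels were also compared per length, as RPKM (CPM per kilobase of exon). The order and its tests used the log2 scale with a prior count of 2, and the RPKM printed hold no prior count. Within tdTom+ the order by mean log2 level was Spdef, Foxa3, Creb3l1, Creb3l4, Atoh1, Bhlha15, Sox9, Foxa1, Foxa2 and Gfi1. Spdef led with a median of 80.3 RPKM, and Gfi1 closed the order at 7.75 RPKM. The 2 factors that begin the lineage thus stood at ranks 5 and 10. Neighbors in the order were compared within libraries by the same exact test, with p-values adjusted over the 18 neighbor pairs of both fractions. In tdTom+ 7 of 9 neighbors differed. Foxa3 and Creb3l1 did not (a mean log2 difference of 0.11 ± 0.22, SD, n = 8, exact sign-flip test, adjusted p = 0.263), nor did Bhlha15 and Sox9 (0.03 ± 0.21, adjusted p = 0.736).

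In tdTom- the order was rearranged, with Sox9 first at a median of 5.79 RPKM and Foxa1 second at 2.76 RPKM. They were followed by Foxa3, Creb3l1, Creb3l4, Foxa2, Spdef, Atoh1, Bhlha15 and Gfi1, the last at a median of 0.146 RPKM. Without a prior count Bhlha15 had the higher median of its pair, 0.330 RPKM against 0.317 RPKM for Atoh1. Spdef moved from rank 1 in tdTom+ to rank 7, and Sox9 from rank 7 to rank 1. In this fraction 6 of 9 neighbor pairs differed, and the order could not be resolved for Foxa3 and Creb3l1 (0.26 ± 0.53, SD, n = 8, exact sign-flip test, adjusted p = 0.263), for Creb3l4 and Foxa2 (0.13 ± 0.66, adjusted p = 0.633) and for Atoh1 and Bhlha15 (0.06 ± 0.64, adjusted p = 0.766).

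**Figure D3:**
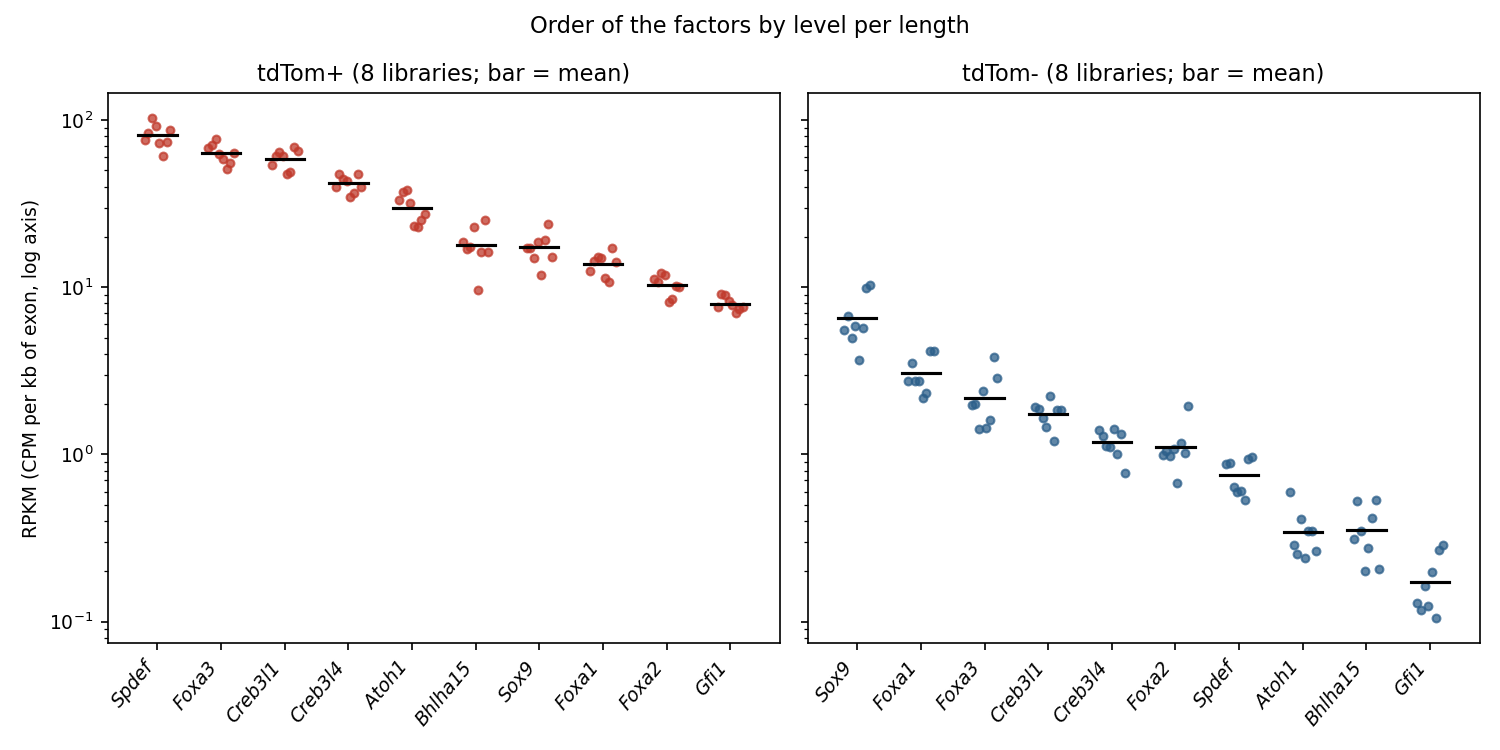
RPKM (log axis) of the 10 factors in the 8 tdTom+ libraries (left) and the 8 tdTom- libraries (right), each panel ordered by mean log2 level, with bars at the mean. Spdef is first in tdTom+ and seventh in tdTom-, Sox9 is seventh in tdTom+ and first in tdTom-, and Gfi1 is last in both.

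Genes were listed by the root mean square difference of their 8 within-mouse log2 ratios from those of a factor. The list was drawn from 13807 genes of at least 1 CPM in tdTom+. The ratios were not centered, so the size of the mean ratio counts in this measure. Whether the genes vary together over the mice was not tested. For Atoh1 the nearest were Kcnk6, Galnt5, Ano7, Agr2 and Myof, with differences of 0.36, 0.37, 0.38, 0.41 and 0.42 log2 units. Agr2 encodes a protein disulfide isomerase needed for mucin production, and Galnt5 an enzyme that starts O-linked glycosylation. Spdef was the nearest of the other members to Atoh1, at place 11. For Gfi1 the nearest were Lrrc26, Plcb1, Slc36a4, 2010001K21Rik and Id4, from 0.36 to 0.48, with Creb3l1, Foxa3 and Creb3l4 at places 21, 24 and 25. Id4 averaged 0.0702 CPM in tdTom-, under the floor of 0.118 to 0.175 CPM, so its ratios rest on few reads. Its mean ratio was 5.45 with the prior count of 2, against a log2 fold change of 6.48 (edgeR). The place of Id4 with another prior count was not tested. The genes nearest to Sox9 were Fam57a, Adra2a, Wdr6, Hilpda and Phf21b, from 0.17 to 0.22. All these ratios come from the same 16 libraries, and the likeness is given as a description.

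The factors work with partners and relatives, which were described from 8 lists. Of their 104 genes 90 were tested, and 46 were called higher and 20 lower in tdTom+. Of the 24 not called, 9 were called with the mouse as a block. The share called was 73.3%, against 49.6% of all genes tested. By direction, 51.1% were higher and 22.2% lower, against 22.7% and 27.0% of all genes tested. The lists were chosen with earlier results of these data known, so these shares are a description and not a test. Only 2 of the 90 had a log2 fold change as large as that of Foxa3.

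Among the dimer partners and inhibitors of ATOH1, 4 of 7 were higher and none was lower, with a list median of 0.30. Id4, one of the ID proteins that block bHLH factors by binding their E protein partners, had the largest log2 fold change, 6.48 ± 0.29 (SE), from 0.0702 to 6.97 CPM on average. Its tdTom- mean is under the level of 3 counts, so the size of that change rests on few reads. The E proteins changed little: Tcf12 rose by 0.74 and Tcf4 by 0.30, and Tcf3 was not called (-0.16, adjusted p = 0.0862, edgeR). Id3 rose by 0.57, and Id1 and Id2 were not called, at 0.00434 and -0.05. The call of Tcf4 was lost under several alternatives, among them scaling by total counts.

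The bHLH repressors on the Notch side did not move as a block, with 2 of 4 tested higher, 1 lower and a median of 0.26. Hes1, the classical repressor of Atoh1, was not called, with means of 32.2 ± 7.06 CPM in the tdTom+ libraries and 38.3 ± 11.2 CPM in the others (SD, n = 8 libraries each, log2 fold change -0.25, adjusted p = 0.227, edgeR). Hes2 was lower by a log2 fold change of -2.17, while Hes6, which counters HES1, was higher by 0.77 and Heyl by 1.64. The other 5 genes were below the filter, and of these Hes3 and Hey2 never exceeded 3 counts in a library.

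GFI1 represses through a complex of KDM1A, RCOR proteins and histone deacetylases. Of 8 relatives and corepressors 4 were higher and 2 lower, with a median of 0.29. Rcor2 rose by 2.07, Gfi1b by 1.88 and Kdm1a, a histone demethylase, by 0.49. Gfi1b, the paralog of Gfi1, is also a tuft cell gene and averaged only 1.43 CPM in tdTom+, where Gfi1 averaged 26.0 CPM. Rcor3 (-0.61) and Hdac3 (-0.41) were lower, and Hdac1 was not called (-0.07).

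The CREB3 family and factors of endoplasmic reticulum stress counted 7 of 12 higher and 2 lower, with a median of 0.45. Ern2, a sensor of unfolded proteins found in mucus-secreting cells, stood out at 6.19 ± 0.16 (SE), from 1.98 to 144 CPM. Xbp1, a factor of the unfolded protein response, rose by 1.13 and Atf6b by 0.72. None of the 3 listed paralogs of Creb3l1 and Creb3l4 was called higher. Creb3l3, a CREB3 member of absorptive cells and liver, was lower by a log2 fold change of -3.27, with means of 49.2 CPM against 476 CPM, and Creb3l2 and Creb3 were not called (-0.36 and -0.24, adjusted p = 0.121 and 0.0211, edgeR), though Creb3 was called lower with the mouse as a block.

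Of 11 other ETS factors tested 7 were higher and 1 was lower, with a median of 0.30. Ets1 (2.09), Etv5 (1.89) and Etv4 (1.17) had the largest changes, well under the 6.74 of Spdef. Gabpa was lower (-0.25), and Elf4 (-0.16) and Elf1 (-0.05) were not called. Of 14 other FOX and SOX factors tested, 5 were higher and 5 lower with a median of -0.05. Foxp4 (1.19), Foxp1 (0.84) and Sox12 (0.77) led, and Sox13 (-0.79), Sox6 (-0.76) and Foxo3 (-0.47) were lowest. Foxf1, Sox18 and Sox21 never exceeded 3 counts in a library.

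Factors of the other secretory subtypes, chiefly enteroendocrine and tuft cells, were all higher, 15 of 15 with a median of 2.36, near the value of Foxa1 and below those of the 7 initiating and goblet and Paneth factors. Neurod2 (4.13), Neurog3 (3.96), the switch to the enteroendocrine fate, and Nkx2-2 (3.49) led, and Lmx1a (1.61), Klf4 (1.35) and Sox4 (1.00) had the smallest changes. Neurog3 reached 15.3 ± 5.73 CPM in tdTom+ (SD, n = 8), and Neurod2 averaged 0.0978 CPM in tdTom-, under the level of 3 counts. Of 19 factors of crypt and intestinal identity tested, 2 were higher, 9 lower and 8 not called, with a median of -0.24, and with the mouse as a block 5 were higher and 11 lower. Prox1 (2.52) and Cdx1 (0.95) were higher, Tcf7 was called (0.43) only with the block, and Maf (-2.54), Hnf4g (71.5 CPM on average in tdTom+ and 287 CPM in tdTom-) and Prdm1 (-1.51) were lowest. HNF4G and MAF are known from villus enterocytes.

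**Figure D4:**
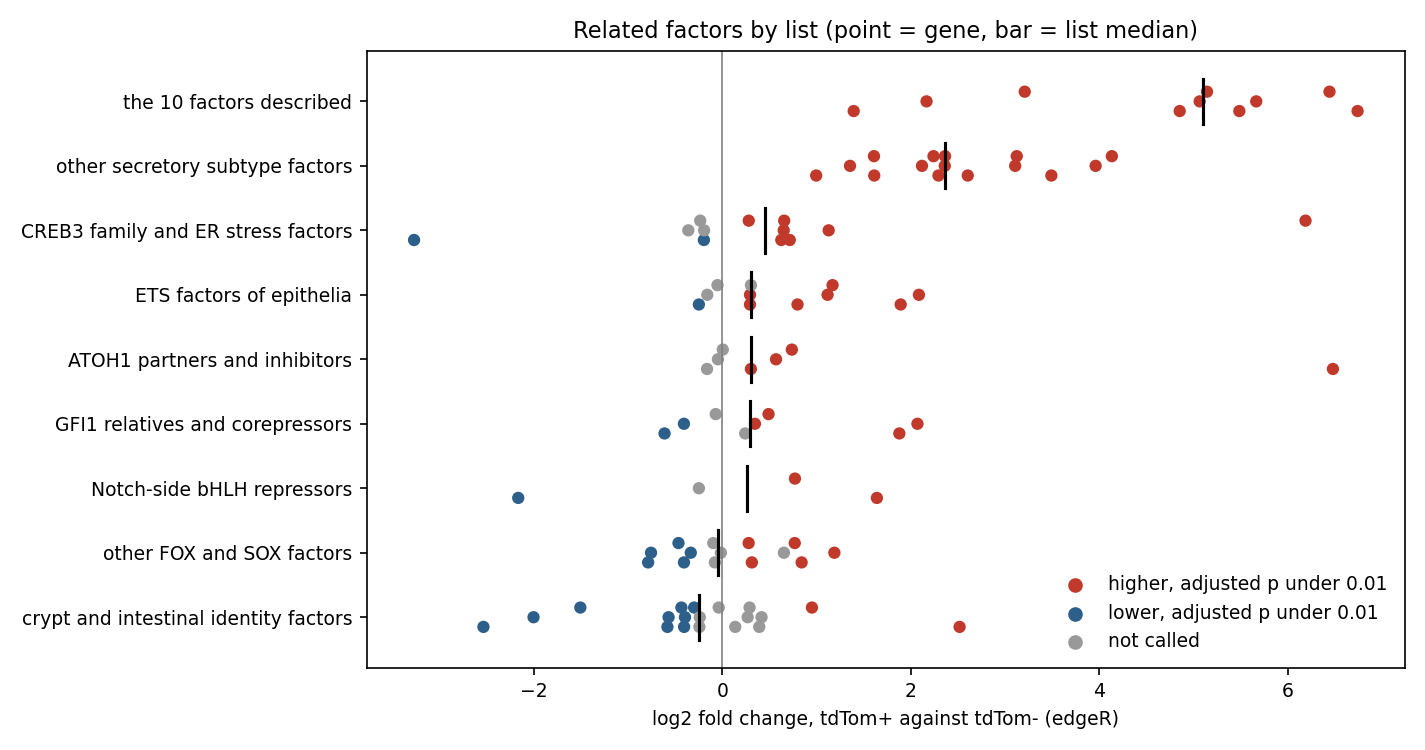
Log2 fold change of each tested gene in the 8 lists and of the 10 factors described, one point a gene, red where higher and blue where lower at adjusted p under 0.01 (edgeR), with a bar at the list median. The subtype factors lie at 1.00 to 4.13, all above 0, and in the other lists only Id4 and Ern2 reach the values of the initiating and goblet and Paneth factors.

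Library totals ran from 17116405 to 25323567 counts, with 20870 to 22196 genes detected, and no 2 libraries held identical values. Markers of the sorted cells bear on the labels. The marker lists were chosen with earlier results of these data known, so their counts and ranges are a description and not a test. Epcam did not differ (log2 fold change -0.11, adjusted p = 0.153, edgeR). Of the 5 epithelium markers it was the 1 not called: Krt18 (2.71), Krt8 (0.53) and Cdh1 (0.47) were higher, and Vil1 (-1.43) was lower. All 8 goblet and all 8 Paneth markers were higher in tdTom+, with medians of 7.31 and 7.47, and their tdTom- means were 0.534% to 1.40% and 0.480% to 0.609% of their tdTom+ means. Of the factors only Spdef (0.930%) and Atoh1 (1.15%) lay within the goblet range. The defensins among the Paneth markers have near-identical copies, and their counts are uncertain. All 8 enteroendocrine markers and 6 of 7 tuft markers tested were also higher, with tdTom- means of 6.38% to 47.0% of tdTom+ for the former and 17.8% to 57.2% for the 7 tuft markers. The crypt-wide factors lay within the wide enteroendocrine range, at 10.7% to 38.0%. Foxa1 (22.2%) and Sox9 (38.0%) lay within the tuft range as well. The 8 absorptive markers were lower, with a median of -3.00, and 3 of 8 stem cell markers were higher. Immune markers summed to 20.9 to 370 CPM in tdTom+ and 53.8 to 1228 CPM in tdTom-, and of the 7 tested 3 were lower, or 6 with the mouse as a block. Of the stromal markers Vim was higher, and the 3 collagens, Pdgfra and Dcn were at or near 0. The part of these cell types in the differences of the factors was not tested.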

How the data were processed

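RNA of sorted EpCAM+tdTom+ and EpCAM+tdTom- cells of 8 mice was sequenced from TruSeq Stranded mRNA libraries (50 bp reads, single-end). The authors aligned reads to GRCm38 with TopHat2 (2.1.1 in the submitters' processing notes) and deposited raw counts per Ensembl gene, not normalized. The file headers name featureCounts 1.5.0-p1, and the processing notes name Subread 1.5.2 and DESeq2 1.14.1. Counting was by exon and reverse-stranded, and used primary alignments. Gene symbols matched 44585 of 45513 identifiers.

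The counts were fitted here with the quasi-likelihood F-test of edgeR 4.0.16 (R 4.3.3, limma 3.58.1) over all 16 libraries, after filterByExpr and TMM scaling. Group was the only term, so this fit left out the pairing by mouse, which the alternative with the mouse as a block takes in. P-values were adjusted by Benjamini-Hochberg over 15323 genes, with a threshold of 0.01. Standard errors were obtained from the estimate and its F statistic. Groups came from the labels. The number that pairs the fractions is the animal number in the titles: deviations from the group mean correlated within mice at 0.426 on average (0.245 to 0.634, 8 mice) and between mice at -0.0569, and each of the 8 tdTom- libraries matched its own mouse best. Differences between members' within-mouse ratios and between levels were tested with exact sign-flip tests over 256 patterns. The fits and tests were checked on simulated data. Alternatives were the mouse as a block, other scalings, filters and thresholds, DESeq2 1.42.0, limma-voom, another prior count, and leaving out each mouse. The genes named are the 10 members, up to 3 genes at each end of a list, genes of a list that never exceeded 3 counts, and the 5 genes most like Atoh1, Gfi1 and Sox9. Members and lists were chosen with earlier results of these data known. Marker lists were chosen in the same way, and are given by counts of calls, medians, percentages and summed CPM. Library depth gives a floor of 3 counts, which covers counting error only.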

Additional observations from a re-analysis of the deposited data

Results flagged for a closer look

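In each fraction the 8 libraries of each factor were searched for 1 that lay apart, on the log2 scale, by the gap of the extreme library to its neighbor over the whole range. Of 20 sets 1 passed Dixon's 95% limit for 8 values, and chance gives about 1 in 20. Bhlha15 in tdTom+ had its lowest library in mouse 5, at 33.5 CPM, and the next at 56.8 CPM, a gap of 0.545 of the range. The Paneth marker sum was also lowest in that library, and its part was not tested. Without mouse 5, as without any other mouse, Bhlha15 was still called higher, with a log2 fold change from 5.52 to 5.78.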

How the results depend on the processing

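All 10 factors were called higher in tdTom+ under each alternative that tested them, namely 20 for 9 of the factors and 19 for Gfi1. When 10 counts were required in every library, Gfi1 was left untested and 9 factors were called. The threshold of 0.05 and the minimum absolute log2 fold change of 1 reused the main fit. The smallest change of a factor there was 1.39, so these 2 alternatives could lose no factor. Log2 fold changes ran from 6.67 to 6.89 for Spdef, 6.36 to 6.57 for Atoh1, 5.40 to 5.84 for Gfi1 and 1.34 to 1.62 for Sox9. Under a replicate block by mouse 8556 genes were called, and 75 in the lists in place of 66, and no call of a factor changed. A minimum absolute log2 fold change of 1 lowered the calls to 3434 of all genes and 31 in the lists, by construction. Leaving out 1 mouse gave 7005 to 8023 calls over all genes, 62 to 71 in the lists, 10 factors called throughout, 33 to 36 of the 45 pairs and 12 or 13 of the 18 neighbor pairs. Leaving out mouse 3 moved the median log2 fold change of all genes by 0.103 and the count filter by 0.119, with 55.1% and 55.0% of calls higher against 45.7%, and the cause was not tested. No gene called in the lists changed direction under any of these alternatives, and scaling by total counts lost 4 calls, Tcf4, Mbtps2, Elf3 and Foxo4. The differences of Creb3l1 from Foxa3 and from Creb3l4, neither of them called, changed sign to -0.02 without mouse 7 and 0.02 without mouse 8. Few tdTom- reads limit the ratios of Gfi1 (7 to 22 counts) and Atoh1 (11 to 24).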
